A study of Mus musculus with 18 samples.

Results

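Interferon beta and the chains of the receptors for type I and type II interferon were followed in bulk RNA-seq libraries of mouse bone marrow-derived dendritic cells (DCs). The genes are *Ifnb1*, *Ifnar1*, *Ifnar2*, *Ifngr1* and *Ifngr2*. They were found by symbol in the deposited table of normalized counts, where each matched a single entry, so that 5 of 62197 entries are described here. The study asked how squeezing DCs to a defined height changes their transcriptome, and whether the phospholipase cPLA_2_ is needed for it. Its 18 libraries form 6 groups of 3. All cells were grown from bone marrow for 10 days with GM-CSF from the supernatant of J558 cells. According to the Methods, bone marrow came from mice of 6 to 8 weeks, and the mice were on a C57BL/6 background. For experiments in general the Methods give a range of higher ages. Nonconfined cPLA_2_ WT and cPLA_2_ KO cells were collected at the end of culture. Confined cPLA_2_ WT and cPLA_2_ KO cells were held at a height of 3 µm and collected after 4 h. The remaining groups, labelled WT and KO, received 100 ng/ml LPS for 30 min (25 min in the Methods), and after a wash were kept until the next day. LPS, a component of bacterial outer membranes, is sensed through the receptor TLR4. The knockout carries floxed *Pla2g4a* alleles recombined by Cre under the *Itgax* promoter, so that the deletion is limited to cells that express CD11c. Because the groups were collected at different times, treatment and time cannot be told apart in comparisons between confined, LPS-treated and nonconfined cells.

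Interferon beta is a secreted cytokine whose gene is silent in most resting cells and is switched on by sensors of microbial products and of nucleic acids. It binds a receptor made of the IFNAR1 and IFNAR2 chains, which signals through the kinases TYK2 and JAK1 to STAT2 and IRF9 and so induces a large set of antiviral genes. Interferon gamma binds a separate receptor of IFNGR1 and IFNGR2 chains, which signals through JAK1 and JAK2 and induces genes of antigen presentation and guanylate-binding proteins. In DCs, type I interferon is known to promote maturation.

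The labels were first checked with the targeted gene. In nonconfined cells, *Pla2g4a* was at 697, 686 and 770 normalized counts in the cPLA_2_ WT libraries and at 548, 542 and 533 in the cPLA_2_ KO libraries. Under confinement it was at 1369, 1430 and 1321 in cPLA_2_ WT and at 923, 871 and 919.5 in cPLA_2_ KO libraries. The knockout libraries were lower in both treatments without overlap, though transcript remained, and counts per gene cannot tell which exons it lacks. With LPS, the libraries labelled WT had 1005, 969 and 967 normalized counts of *Pla2g4a* and those labelled KO had 1065, 1032 and 1028, so that the LPS libraries labelled KO were not the lower ones. *Ddx3y*, a gene of the Y chromosome, was at 0 to 3.05 normalized counts in the cPLA_2_ WT libraries without LPS and at 874 to 1036 in the cPLA_2_ KO libraries without LPS. In the LPS libraries labelled WT it was at 1271, 0 and 662, and in those labelled KO at 2.12, 1476 and 783. The genotype labels of the LPS libraries therefore go against *Pla2g4a*, and the libraries are called by their labels below. Whether the LPS libraries are mislabelled or mixed was not tested. Comparisons with LPS average both labels and do not rest on them, and no library was regrouped. Without LPS, the genotype and the sex of the donor animals cannot be told apart.

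The labelled cell type was checked with its markers. All 7 DC markers were detected in all libraries, with *Cd74* the most abundant, and *Flt3* was the lowest of them at 1901 reads over all libraries. With confinement 5 of the 7 fell and 1 rose in cPLA_2_ WT cells, and 7 fell in cPLA_2_ KO cells, while 6 rose with LPS. Genes of granulocytes were abundant as well, although the Methods describe that these cells, which do not adhere, were removed during culture and that the semiadherent cells were taken. The summed level of 6 neutrophil genes, led by *S100a9*, was 235275, 240680 and 238855 normalized counts in nonconfined cPLA_2_ WT libraries and 365873, 328551 and 353665 in nonconfined cPLA_2_ KO libraries. It was 153545, 146368 and 144099 in confined cPLA_2_ WT libraries and 331365, 344552 and 328357 in confined cPLA_2_ KO libraries. In the LPS libraries it was 307309, 287581 and 290427 with the WT label and 274303, 311004 and 292442 with the KO label. All 6 neutrophil genes fell with confinement in cPLA_2_ WT cells, against 1 of 6 in cPLA_2_ KO cells, and all 6 were higher in cPLA_2_ KO than in cPLA_2_ WT cells in both treatments. The 4 eosinophil genes, led by *Prg2*, summed to between 27812 and 28181 (cPLA_2_ WT) and between 63232 and 67608 (cPLA_2_ KO) when nonconfined, and to between 6883 and 7418 (cPLA_2_ WT) and between 15911 and 16836 (cPLA_2_ KO) when confined. Their sum differed within the LPS groups, at 39730, 23288 and 31432 with the WT label and 23085, 39326 and 32102 with the KO label. Of these genes, 3 were higher and 1 was lower in cPLA_2_ KO than in cPLA_2_ WT cells in both treatments. With confinement 3 fell and 0 rose in each genotype, and with LPS all 4 fell, with a median of -0.48. The 5 genes of mast cells and basophils, led by *Cpa3*, summed to 6129 to 6474, 9153 to 9662, 2839 to 2974 and 4897 to 5049 in the same order of groups without LPS, and to 5667 to 6300 with LPS. With confinement 4 of these 5 fell and 1 rose in each genotype, and all 5 fell with LPS. The 6 macrophage genes, led by *Adgre1*, summed to between 10436 and 17252 without LPS and between 17105 and 21813 with it, although 4 of the 6 fell and 2 rose with LPS, with a median of -0.37. Of 8 genes listed for plasmacytoid DCs, a cell type known for type I interferon, *Siglech* and *Ly6d* had 138 and 100 reads over all 18 libraries and *Klk1*, *Ccr9* and *Cox6a2* had 78, 422 and 451, while *Pacsin1* and *Tcf4* had 5291 and 16025. Most of that list's sum, 7510 to 28271 normalized counts, came from *Bst2*, which is also a target of type I interferon. The sum of the T and NK cell genes, led by *Cd3g*, had means of 2335 and 2884 in nonconfined, 714 and 1044 in confined and 412 and 416 in LPS libraries, with WT before KO. Nearly all of this sum came from *Cd3g*, with 25399 reads over all libraries. *Cd3e* had 244 reads, *Klrb1c* 69, *Ncr1* 14 and *Gzma* 8. In such bulk libraries, fewer cells of a type and less RNA per cell cannot be told apart, and the part of these other cell types in the results below was not tested.

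Values are counts per gene after division by the size factor of the library, and gene length is not taken into account. The whole reads on genes were recovered from them and ranged from 33027230 to 61300021 per library. Changes are given as differences of log2(normalized count + 1) from limma, fitted to all 17875 genes that reached 10 normalized counts in 3 or more libraries and adjusted by the Benjamini-Hochberg method over all of them. For genes near the floor this scale makes changes smaller than they are. The paper calls the libraries of a group biological replicates. Whether they came from separate animals is not in the labels, and p-values measure the spread between these libraries.

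*Ifnb1* (identifier GSMG0038501) is a single-exon gene on the minus strand of mouse chromosome 4, where the deposited table places it at chr4:88440262-88441031 (mm39). It passed the filter only through the confined cPLA_2_ WT and LPS libraries, where it was high. In nonconfined cPLA_2_ WT libraries it had 3.05, 5.12 and 5.90 normalized counts, from 4, 6 and 6 reads. Nonconfined cPLA_2_ KO libraries had 0, 1.86 and 3.88, from 0, 2 and 4 reads, and the 0 allows up to 2.35 normalized counts at 3 reads. The transcript was thus barely detectable in nonconfined cells of both genotypes, whose values overlapped. Confined cPLA_2_ WT libraries had 105.3, 92.6 and 103.1 normalized counts. Confined cPLA_2_ KO libraries had 11.9, 6.40 and 6.38. All confined cPLA_2_ WT libraries were far above all confined cPLA_2_ KO libraries, and the latter were slightly above every nonconfined library. The LPS libraries labelled WT had 167.2, 154.7 and 145.5 normalized counts, and those labelled KO had 144.3, 133.9 and 134.5.

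With confinement, *Ifnb1* rose in cPLA_2_ WT cells by 4.19 on the log2 scale (standard error 0.42, adjusted p = 2.30e-08), from 16 to 304 reads over the 3 libraries. Adjusted for the size factors, the ratio of these reads was 21.9, with a 95% counting interval of 13.2 to 38.7. In cPLA_2_ KO cells *Ifnb1* rose by 1.88 (standard error 0.42, adjusted p = 0.000904), from 6 to 24 reads. The ratio adjusted in the same way was 4.57, with a counting interval of 1.82 to 13.7. The intervals cover counting error only. The rise in cPLA_2_ KO cells was no longer called when the fit held only the groups compared (adjusted p = 0.0516), and was 1.25 without nonconfined cPLA_2_ KO replicate 1 and 0.95 with a pseudocount of 5. The change with confinement was smaller in cPLA_2_ KO than in cPLA_2_ WT cells, with an interaction of -2.30 (standard error 0.59, adjusted p = 0.00594). Among confined cells, the cPLA_2_ KO libraries were lower by -3.51 (standard error 0.42, adjusted p = 6.85e-07). The ratio of cPLA_2_ WT to cPLA_2_ KO reads in confined cells, adjusted for the size factors, was 12.3, with a counting interval of 8.12 to 19.5. Among nonconfined cells the difference of -1.20 did not pass the test (standard error 0.42, adjusted p = 0.0822), but it did without nonconfined cPLA_2_ KO replicate 3, at -1.71, while without replicate 1 of that group it was -0.57 (adjusted p = 0.426).

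LPS raised *Ifnb1* by 5.33 over nonconfined cells (standard error 0.30, adjusted p = 4.91e-13). The order of the groups was LPS labelled WT, LPS labelled KO, confined cPLA_2_ WT, confined cPLA_2_ KO, nonconfined cPLA_2_ WT and nonconfined cPLA_2_ KO. Of the neighbours in this order, the LPS groups did not pass the limma test (-0.18, standard error 0.42, adjusted p = 0.9997), although their values did not overlap. This standard error comes from a spread shared by all 6 groups and is not that of the LPS groups. Their coefficients of variation were 6.98% (label WT) and 4.24% (label KO), against 31.4% and 101% in nonconfined cPLA_2_ WT and cPLA_2_ KO libraries. Confined cPLA_2_ WT cells lay below the LPS libraries without overlap, at -0.54 (standard error 0.36). This difference missed the threshold in limma (adjusted p = 0.222) and passed it with a pseudocount of 5, with edgeR, with DESeq2 and in the fit of the compared groups alone, where the lowest adjusted p was 0.00187. Confined cPLA_2_ KO cells were lower than LPS-treated cells by -4.05 (standard error 0.36, adjusted p = 2.85e-09).

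**Figure D1:**
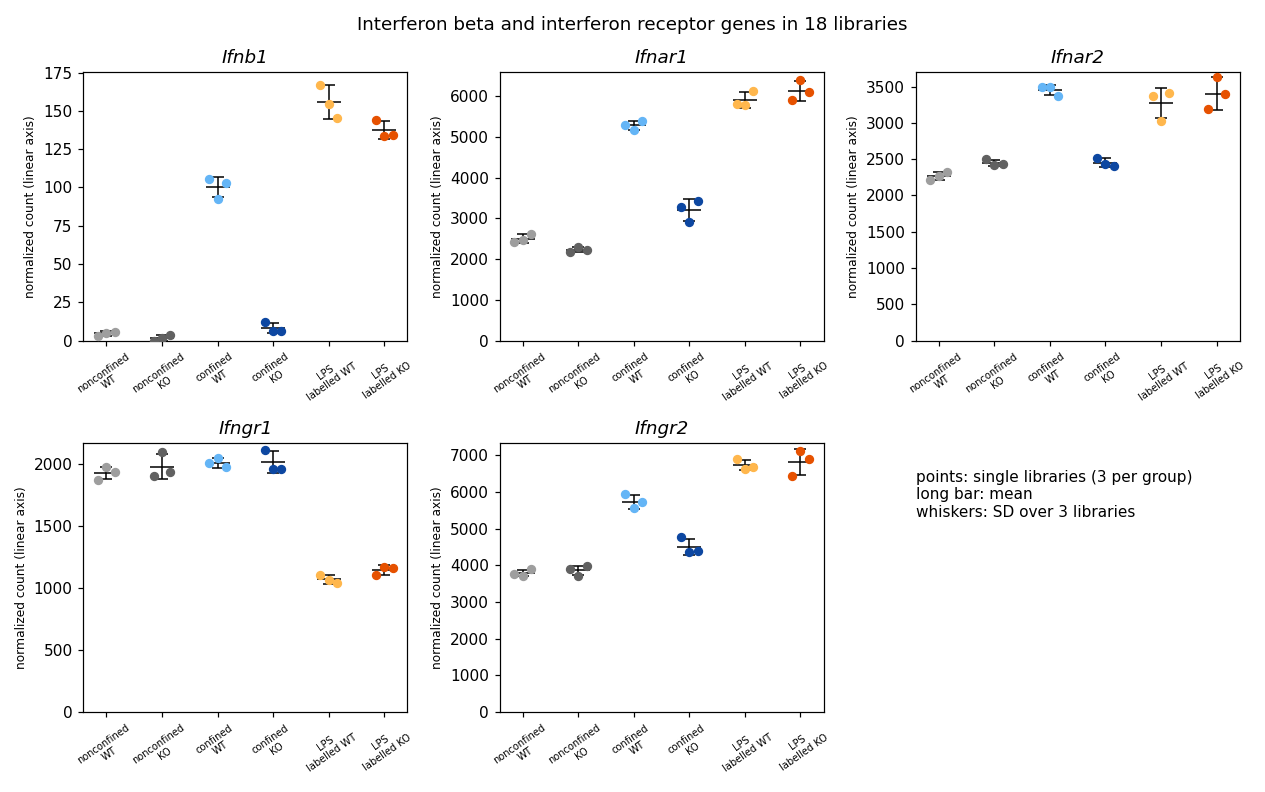
Normalized counts (linear axis from 0) of the 5 genes in each of 18 libraries, by group on the horizontal axis. Points are libraries, long bars are means and whiskers are the SD of 3 libraries. *Ifnb1* was between 92.6 and 105.3 in confined cPLA_2_ WT and between 6.38 and 11.9 in confined cPLA_2_ KO libraries, and *Ifngr1* was lower with LPS only.

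Other interferon genes gave next to no reads. The list of 20 other ligands holds 13 interferon alpha genes, *Ifnab*, *Ifne*, *Ifnk*, *Ifnz*, *Ifng* and the interferon lambda genes *Ifnl2* and *Ifnl3*, and none of them passed the filter. No read was found in any of the 18 libraries for *Ifna7*, *Ifna11*, *Ifna12*, *Ifna13*, *Ifna14*, *Ifna15*, *Ifna16*, *Ifne*, *Ifnl2* and *Ifnl3*. The floor of 3 reads corresponds to between 2.29 and 3.70 normalized counts in a library. *Ifnz* had the most, with 20 reads in 8 libraries, followed by *Ifnk* with 15 reads in 4 and *Ifng* with 12 reads in 4. The 20 genes together summed to at most 17.0 normalized counts, in an LPS library labelled KO. The interferon alpha genes are near-identical copies, so that reads matching several of them may have been left uncounted.

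*Ifnar1* (GSMG0021219, chr16:91282103-91307408) encodes the chain of the type I receptor that binds TYK2. In nonconfined cells it had 2414, 2458 and 2618 normalized counts in cPLA_2_ WT libraries and 2175, 2289 and 2224 in cPLA_2_ KO libraries. Confined cPLA_2_ WT libraries had 5291, 5173 and 5387, and confined cPLA_2_ KO libraries had 3290.0, 2898 and 3414. With LPS, *Ifnar1* was at 5809.9, 5781 and 6130.0 in the libraries labelled WT and at 5904, 6383 and 6092 in those labelled KO. The confined cPLA_2_ KO libraries thus lay between nonconfined and confined cPLA_2_ WT libraries, with no overlap on either side. Confinement raised the gene by 1.08 in cPLA_2_ WT cells (standard error 0.055, adjusted p = 3.00e-13), against 0.52 in cPLA_2_ KO cells (standard error 0.055, adjusted p = 1.01e-07), and the changes differed by -0.56 (standard error 0.077, adjusted p = 7.88e-06). In confined cells, cPLA_2_ KO minus cPLA_2_ WT was -0.73 (standard error 0.055, adjusted p = 4.92e-10). In nonconfined cells it was -0.16 (adjusted p = 0.0709), which passed the threshold with DESeq2 and with the same total per library. LPS raised *Ifnar1* by 1.35 (standard error 0.039, adjusted p = 3.67e-18). The mean ± SD over 3 libraries was highest with LPS, 5907 ± 194 and 6127 ± 242, and 5284 ± 107 in confined cPLA_2_ WT cells. Confined cPLA_2_ WT cells were lower than LPS-treated cells by -0.19 (adjusted p = 0.00217), a direction that turned to 0.10 with the same total per library and was then not called.

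*Ifnar2* (GSMG0021215, chr16:91169671-91202477) encodes the high-affinity chain of the same receptor. Nonconfined libraries had 2211, 2272 and 2321 normalized counts in cPLA_2_ WT and 2499, 2418 and 2434 in cPLA_2_ KO cells. Confined libraries had 3500.0, 3490.0 and 3375 in cPLA_2_ WT and 2520, 2431 and 2403 in cPLA_2_ KO cells. The confined cPLA_2_ KO libraries overlapped the nonconfined cPLA_2_ KO libraries, while the confined cPLA_2_ WT libraries stood above all libraries without LPS. LPS libraries had 3372, 3032 and 3415 with the WT label and 3186, 3633 and 3395 with the KO label, which overlapped confined cPLA_2_ WT cells. The change with confinement was 0.61 in cPLA_2_ WT cells (standard error 0.053, adjusted p = 2.56e-09). In cPLA_2_ KO cells it was 0.00043, with a 95% interval of -0.11 to 0.11 (adjusted p = 0.997). The difference of these changes was -0.61 (standard error 0.075, adjusted p = 1.85e-06). LPS raised *Ifnar2* by 0.50 (standard error 0.037, adjusted p = 7.98e-11), but with the same total per library this change was 0.0034 and not called. Confined cPLA_2_ WT cells differed from LPS-treated cells by 0.051 (95% interval -0.044 to 0.15, adjusted p = 0.362), which passed the threshold at 0.12 with TMM scaling and at 0.34 with the same total per library. Confined cPLA_2_ KO cells were lower than LPS-treated cells by -0.44 (adjusted p = 2.61e-08), a difference that vanished with the same total per library.

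*Ifngr2* (GSMG0021220, chr16:91343947-91367985) encodes the signalling chain of the interferon gamma receptor. It had 3758, 3714 and 3886 normalized counts in nonconfined cPLA_2_ WT and 3884, 3717 and 3964 in nonconfined cPLA_2_ KO libraries, which overlapped. In confined libraries it had 5932, 5551 and 5720.0 in cPLA_2_ WT and 4756, 4368 and 4391 in cPLA_2_ KO cells. The LPS libraries had 6894, 6616 and 6691 with the WT label and 6423, 7110.1 and 6886 with the KO label. As for *Ifnar1*, confined cPLA_2_ KO libraries were intermediate, and LPS libraries were the highest. Confinement raised *Ifngr2* by 0.60 in cPLA_2_ WT cells (standard error 0.048, adjusted p = 5.78e-10), against 0.22 in cPLA_2_ KO cells (standard error 0.048, adjusted p = 0.000567), with a difference of -0.37 between the changes (standard error 0.067, adjusted p = 0.000210). LPS raised it by 0.82 (standard error 0.034, adjusted p = 1.97e-15). Confined cPLA_2_ WT cells were lower than LPS-treated cells by -0.24 (adjusted p = 4.39e-05), and this direction turned to 0.049 with the same total per library and was then not called.

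*Ifngr1* (GSMG0003076, chr10:19467697-19485981) encodes the ligand-binding chain of the interferon gamma receptor and behaved differently. It had 1869, 1970 and 1931 normalized counts in nonconfined cPLA_2_ WT and 1902, 2090 and 1935 in nonconfined cPLA_2_ KO libraries. Confined libraries had 2001, 2048 and 1971 in cPLA_2_ WT and 2111, 1960 and 1958 in cPLA_2_ KO cells. The LPS libraries had 1104, 1060 and 1035 with the WT label and 1100, 1168 and 1160 with the KO label, all below every library without LPS. The LPS change was -0.82 (standard error 0.037, adjusted p = 1.36e-14), and the mean in LPS libraries was 0.567 times that in nonconfined libraries. With the same total per library the LPS change was -1.32. Confinement gave 0.061 in cPLA_2_ WT cells (95% interval -0.049 to 0.17, adjusted p = 0.342) and 0.025 in cPLA_2_ KO cells (95% interval -0.085 to 0.13, adjusted p = 0.732), and neither passed the test. With the same total per library the value in cPLA_2_ WT cells was -0.16 and was called, against a median over all genes of -0.23. *Ifngr1* was higher in confined than in LPS-treated cells, by 0.86 in both genotypes (adjusted p = 9.19e-13 in cPLA_2_ WT and 3.72e-13 in cPLA_2_ KO), and by 1.15 and 1.31 with the same total per library. The *Ifngr1* and *Ifngr2* transcripts therefore changed in opposite directions with LPS.

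**Figure D2:**
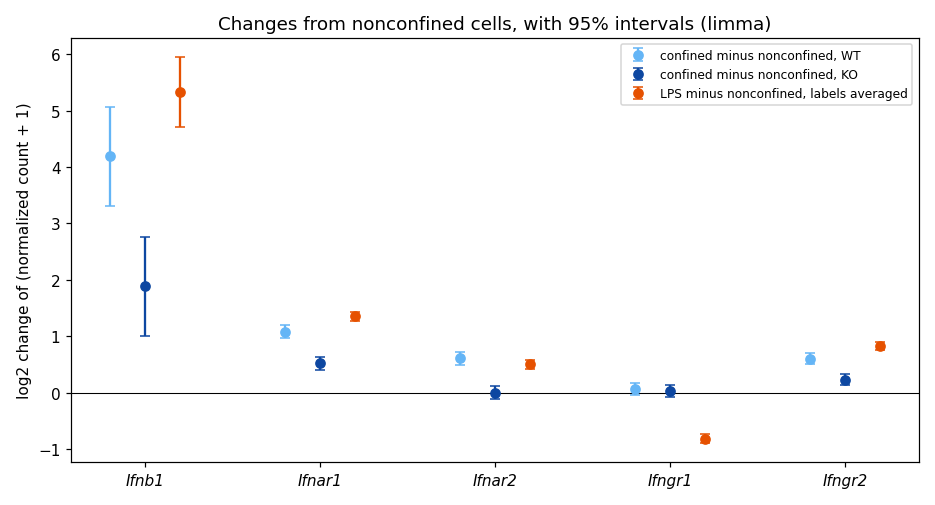
Changes of log2(normalized count + 1) from nonconfined cells (vertical axis) of the 5 genes (horizontal axis), with 95% intervals from limma, for confinement in cPLA_2_ WT and cPLA_2_ KO cells and for LPS with both labels averaged. *Ifnb1* had the widest intervals, and the value of *Ifngr1* was -0.82 with LPS.

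Set against all genes tested, 4 of the 5 genes rose with confinement in cPLA_2_ WT cells and none fell, whereas 28.2% of all genes rose and 28.4% fell. In cPLA_2_ KO cells 3 of 5 rose, against 22.8% of all genes that rose and 23.4% that fell. The interaction was negative for 4 of 5, against 15.6% of all genes, with 10.2% positive. Among confined cells 4 of 5 were lower in cPLA_2_ KO cells, against 20.6% of all genes lower and 18.8% higher. Among nonconfined cells 0 of 5 passed, against 4.78% of all genes higher in cPLA_2_ KO cells and 4.11% lower. With edgeR this count was also 0 of 5, against 1576 of 17875 genes, and with DESeq2 it was 1, against 2028 genes, with 3119 of the 17875 left without an adjusted p. At an unadjusted p under 0.05, 3 of 5 passed in limma, against 4005 of 17875 genes. LPS raised 4 of 5 and lowered 1, against 37.2% of all genes raised and 34.3% lowered. Between the LPS libraries labelled KO and WT, 0 of 5 and 0% of all genes were called in either direction by limma, and 0 genes by edgeR or DESeq2. In limma, 890 of 17875 genes had an unadjusted p under 0.05 there, with 0 of the 5 among them. Since these labels go against *Pla2g4a*, the counts do not show whether genotype matters with LPS. Comparing the LPS libraries by label, each with nonconfined and confined cells of the same genotype label, gave the same calls for all 5 genes. Confined cPLA_2_ WT cells exceeded LPS-treated cells in 1 of 5 and were below them in 2 of 5, against 24.5% and 29.8% of all genes. For confined cPLA_2_ KO cells these numbers were 1 and 4 of 5, against 30.3% and 32.5%. *Ifnb1* counts in each of these only because it passed the filter through the groups where it was high. The comparisons with nonconfined or LPS libraries share those libraries and are not independent of each other.

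The scaling of the libraries matters for small changes, since the groups differed in their normalized totals, with means of 34125100 (cPLA_2_ WT) and 34932700 (cPLA_2_ KO) when nonconfined, 39890300 (cPLA_2_ WT) and 35819000 (cPLA_2_ KO) when confined, and 48718700 and 48721800 in the LPS libraries labelled WT and KO. When every library was given the same total, the median change of all genes moved to -0.23 for confinement in cPLA_2_ WT cells, -0.024 in cPLA_2_ KO cells and -0.46 for LPS. With this scaling the changes of *Ifnar1*, *Ifnar2* and *Ifngr2* with confinement in cPLA_2_ WT cells were 0.86, 0.38 and 0.37 and remained called, as did those of *Ifnar1* and *Ifngr2* with LPS, 0.85 and 0.33. These values are not taken relative to the medians. Of all genes, 3578 were then called up and 7380 down with confinement in cPLA_2_ WT cells (5038 and 5075 with the size factors), 4741 and 1962 for the interaction (1823 and 2796), 757 and 1045 for cPLA_2_ KO minus cPLA_2_ WT in nonconfined (854 and 734) and 6001 and 2604 in confined cells (3356 and 3682). With LPS they were 3640 and 10160 (6648 and 6126), and for confined minus LPS-treated cells 8056 and 2679 in cPLA_2_ WT (4383 and 5318) and 10122 and 2993 in cPLA_2_ KO cells (5422 and 5816). The interactions of *Ifnar1*, *Ifnar2* and *Ifngr2* were also called with this scaling, at -0.37, -0.42 and -0.19, against a median of 0.24.

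Levels can be compared between genes only per length. Per kilobase of the longest annotated transcript, nonconfined cPLA_2_ WT cells had 1006 ± 23.7 normalized counts of *Ifngr2* (SD, n = 3), 889 ± 23.5 of *Ifngr1*, 689 ± 16.8 of *Ifnar2*, 471 ± 20.3 of *Ifnar1* and 6.25 ± 1.96 of *Ifnb1*. In confined cPLA_2_ WT cells the level per kilobase was 1524 ± 50.8 for *Ifngr2*, 1049 ± 21.2 for *Ifnar2*, 998 ± 20.2 for *Ifnar1*, 928 ± 17.9 for *Ifngr1* and 134 ± 9.04 for *Ifnb1*. *Ifngr2* thus had the highest and *Ifnb1* the lowest level per kilobase of the 5 genes in all 6 groups, also per kilobase of the union of exons. With LPS, *Ifngr1* had the lowest level per kilobase of the receptor genes, at 493 ± 16.1 and 528 ± 17.2 per kilobase with the WT and KO labels. The order of *Ifnar1*, *Ifnar2* and *Ifngr1* in confined cPLA_2_ WT cells depended on the length used, since *Ifnar1* had 651 and *Ifngr1* had 705 per kilobase of the union of exons.

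The remaining chains of the class II cytokine receptor family, to which the interferon receptors belong, were taken from a list of 8 genes, of which 5 passed the filter. With confinement in cPLA_2_ WT cells 4 rose and 0 fell, with a median change of 0.56 against -0.0055 over all genes tested. *F3*, which encodes tissue factor, rose by 3.22, *Il20rb* by 1.09, *Il10rb*, a chain shared by the receptors for interleukin 10 and interferon lambda, by 0.56, and *Il10ra* by 0.30. The rise of *Il10ra* was not called with the same total per library. *Ifnlr1*, the specific chain of the interferon lambda receptor, had group means between 48.0 and 68.6 normalized counts and a change of -0.23 that did not pass. In cPLA_2_ KO cells *F3* rose by 1.13 and *Il10rb* by 0.36, and the interaction was negative for *F3* (-2.09) and *Il10ra* (-0.34), the latter not called with the same total per library. LPS raised 4 of the 5, with a median of 1.06 against 0.020 over all genes. Group means of *Il20ra*, *Il22ra1* and *Il22ra2* were at most 1.59, 0.61 and 3.61 normalized counts. Counts of risen and fallen genes in the marker lists, this list and the following lists stand against the shares of all genes given above. For confinement in cPLA_2_ WT cells these were 28.2% risen and 28.4% fallen, and 22.8% and 23.4% in cPLA_2_ KO cells. For LPS they were 37.2% and 34.3%, and for the interaction 10.2% positive and 15.6% negative.

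All 6 genes of the list of kinases and transcription factors next to the receptors were tested. In confined cPLA_2_ WT cells 5 of 6 rose, with a median change of 0.68. *Jak2*, the kinase of the IFNGR2 chain, went from 10367 ± 331 to 25687 ± 56.0 normalized counts (SD, n = 3), a change of 1.31. *Stat2* rose by 1.26, *Irf9* by 0.37 and *Jak1* by 0.26, and the rise of *Jak1* was not called with the same total per library. *Tyk2* gave 0.086 and did not pass, but with the same total per library it was called at -0.14. In confined cPLA_2_ KO cells 0 rose and 4 fell, with a median of -0.31 against 0.010 over all genes. The falls included -0.97 for *Irf9*, -0.49 for *Stat2* and -0.13 for *Tyk2*, while *Jak2* gave 0.037. The interaction was negative for 5 of 6, with *Stat2* at -1.76, *Irf9* at -1.35, *Jak2* at -1.27 and *Tyk2* at -0.22, the last not called with the same total per library. LPS raised all 6, with a median of 1.32.

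Of 8 negative regulators of receptor signalling, 6 rose and 1 fell in confined cPLA_2_ WT cells, with a median of 0.66. *Socs3*, an inhibitor of JAK kinases, rose by 3.27, *Usp18*, which binds the IFNAR2 chain, by 1.49, *Socs1* by 0.98, and the phosphatase genes *Ptpn2*, *Ptpn1* and *Ptpn11* by 0.85, 0.48 and 0.24. *Ptpn6* fell, at -0.72, and *Pias1* gave -0.015, called at -0.24 with the same total per library. *Ptpn11* was not called with the same total per library. The cPLA_2_ KO libraries had 3 risen and 3 fallen, with a median of 0.037. The falls were -1.55 for *Usp18*, -0.68 for *Ptpn6* and -0.24 for *Socs1*, while *Socs3* rose by 0.41, *Ptpn1* by 0.33 and *Ptpn2* by 0.24. The interaction was negative for *Usp18* (-3.04), *Socs3* (-2.86), *Socs1* (-1.22) and *Ptpn2* (-0.62). LPS raised 7 of 8, and the increase of *Pias1* among them, 0.11, turned to -0.39 with the same total per library and was not called with TMM scaling.

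The list of inducers of *Ifnb1* holds sensors, adaptors, kinases and transcription factors, and 23 of its 25 symbols were in the table. *Tmem173* and *Rigi* are listed there under the symbols *Sting1* and *Ddx58*, which are counted. In confined cPLA_2_ WT cells 20 of 23 rose and 2 fell, with a median of 0.59 against -0.0055 over all genes, and with the same total per library 15 rose and 2 fell. *Cd14*, a coreceptor for LPS, went from 1899 ± 77.7 to 131510 ± 3988 normalized counts (SD, n = 3), a change of 6.11 (standard error 0.062, adjusted p = 4.17e-25). *Nfkb1* rose by 2.10 and *Ifih1*, a sensor of double-stranded RNA, by 2.05. *Sting1* and *Irf3* fell, at -0.75 and -0.17, and the fall of *Irf3* was not called with TMM scaling. In confined cPLA_2_ KO cells 12 rose and 10 fell, with a median of 0.14. *Cd14* rose by 3.05, to 16429 ± 307, and *Nfkb1* by 0.48, whereas *Ifih1*, *Sting1* and *Irf3* fell, at -0.84, -0.63 and -0.26. The interaction was negative for 13 and positive for 1, with *Cd14* at -3.06, *Ifih1* at -2.89 and *Nfkb1* at -1.62. LPS raised 18 and lowered 3 of the 23, with a median of 1.24.

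Targets of type I interferon had medians of opposite sign in the confined genotypes. Of 20 genes, 19 rose in confined cPLA_2_ WT cells, with a median of 2.16, and *Bst2* gave 0.028 and did not pass, but was called at -0.20 with the same total per library. *Cxcl10*, a chemokine, rose by 6.63 (standard error 0.077, adjusted p = 3.12e-24), from 434 ± 24.3 to 43136 ± 882 normalized counts (SD, n = 3). *Rsad2*, an antiviral enzyme, rose by 5.08, from 333 ± 11.6 to 11329 ± 229, and *Oasl1* by 4.52, from 355 ± 13.0 to 8154 ± 288. In confined cPLA_2_ KO cells 17 of 20 fell and 1 rose, with a median of -1.21 against 0.010 over all genes. The gene that rose was *Cxcl10*, by 0.60, and those that did not pass were *Rsad2* at 0.094 and *Oasl1* at 0.045. The interaction was negative for all 20 genes, with a median of -3.09 against 0.051 over all genes tested. *Cxcl10* had an interaction of -6.04, *Rsad2* of -4.99 and *Oasl1* of -4.47. In nonconfined cells 4 were higher and 2 lower in cPLA_2_ KO than in cPLA_2_ WT cells, with a median of 0.066. LPS raised all 20, with a median of 3.46, and all 20 were lower in confined cPLA_2_ WT than in LPS-treated cells, with a median of -1.10 against -0.014. With the same total per library, confinement gave 18 risen and 1 fallen in cPLA_2_ WT cells and 1 risen and 17 fallen in cPLA_2_ KO cells. The summed level of the list was between 212876 and 222895 normalized counts in confined cPLA_2_ WT libraries and between 23457 and 24218 in confined cPLA_2_ KO libraries. It was between 47271 and 50516 in the nonconfined libraries of both genotypes and between 409434 and 436629 in the LPS libraries. *Ifnb1* transcript and these targets thus had different orders, since confined cPLA_2_ KO libraries were above the nonconfined ones for *Ifnb1* and below them for the sum of the targets. For *Ifnb1* this order rests on 24 reads in confined cPLA_2_ KO libraries, against 6 in nonconfined cPLA_2_ KO and 16 in nonconfined cPLA_2_ WT libraries. Its rise in cPLA_2_ KO cells was not called when the limma fit held only the groups compared (adjusted p = 0.0516).

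Of 15 targets of interferon gamma, several of which also respond to type I interferon, 13 rose and 2 fell in confined cPLA_2_ WT cells, with a median of 1.07. *Cxcl9*, a chemokine, rose by 5.46, from 6.39 ± 3.62 to 297 ± 12.4 normalized counts (SD, n = 3), *Gbp5* by 3.00 and *Cd274*, which encodes the ligand PD-L1, by 2.16. *Ciita*, the transactivator of MHC class II genes, fell, at -1.03, as did *Psmb9*, at -0.13, and the fall of *Psmb9* was not called with TMM scaling. Among the cPLA_2_ KO libraries 2 rose and 12 fell, with a median of -1.07. *Cd274* rose by 0.88 and *Cxcl9* by 0.72, the latter at an adjusted p of 0.0499 in limma and not called with TMM scaling or the same total. *Gbp5*, *Psmb9* and *Ciita* fell, at -1.31, -1.11 and -1.01. The interaction was negative for 14 of 15, and for *Ciita* it was 0.016 and did not pass. LPS raised all 15, with a median of 2.01, although *Ciita*, at 0.45, turned to -0.042 with the same total per library. *Ifng* itself was at or near the floor in all libraries.

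**Figure D3:**
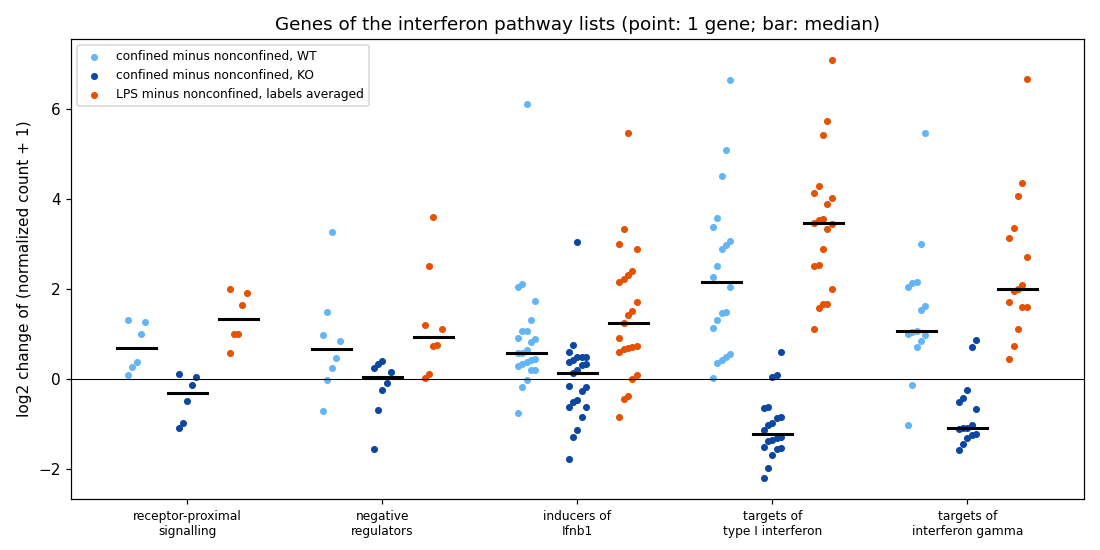
Changes of log2(normalized count + 1) from nonconfined cells (vertical axis) of the genes tested in 5 lists (horizontal axis), for confinement in cPLA_2_ WT and cPLA_2_ KO cells and for LPS with both labels averaged. Each point is a gene and each bar a median. For targets of type I interferon the medians are 2.16, -1.21 and 3.46.

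The window of 250 bases before the start of the canonical transcript of each gene was read from GRCm39, because the 4 genes that rose did so together in confined cPLA_2_ WT cells. Both strands were searched for AANNGAAA, a core of sites for interferon regulatory factors that was added after the sequences had been read, for the longer element of 2 GAAA with 2 bases between them, for TTCNNNGAA, the core of STAT sites, for TATAAA, for TGACNTCA, for TGANTCA and for the NF-kB consensus. Of 21751 promoters of protein-coding genes, 22.39% held AANNGAAA, 3.319% the longer element, 7.692% TTCNNNGAA, 11.91% TATAAA, 6.846% TGACNTCA, 6.174% TGANTCA and 4.225% the NF-kB consensus. *Ifnb1* held AANNGAAA at 3 places, TATAAA at 2 and the NF-kB consensus at 1, and no match to the others. *Ifngr2* held the NF-kB consensus at 1 place, *Ifnar1* TATAAA at 1 and *Ifnar2* TTCNNNGAA at 1, and *Ifngr1* held none of the motifs. No matches of different motifs overlapped. Starts are those of GENCODE. That of *Ifnar2* lies after the start of the whole gene model, 91169618, and those of *Ifnb1*, *Ifnar1* and *Ifngr2* are not the ends of the deposited entries, so that windows and distances would shift with these other starts. A match is a description of letters and does not show binding. The sequences with the NF-kB consensus are shown, with matches in capitals. That of *Ifnb1* is the minus strand of chr4:88441108-88441261, from 250 to 97 bases before this start, and that of *Ifngr2* is the plus strand of chr16:91343826-91343905, the last 80 bases before the start.
Ifnb1: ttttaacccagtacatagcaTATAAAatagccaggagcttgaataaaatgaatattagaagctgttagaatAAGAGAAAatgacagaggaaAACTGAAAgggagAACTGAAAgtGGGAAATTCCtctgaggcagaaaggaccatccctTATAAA
Ifngr2: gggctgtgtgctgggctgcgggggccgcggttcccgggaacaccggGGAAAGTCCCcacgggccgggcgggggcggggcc

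*Ifnar2*, *Il10rb*, *Ifnar1* and *Ifngr2* lie next to each other on the plus strand of chromosome 16, and the genes that follow were listed as neighbours. Of 10 symbols 9 were in the table, with *Atp5po* present under the symbol *Atp5o*. In confined cPLA_2_ WT cells 3 of these rose and 2 fell, with a median of 0.096 against -0.0055 over all genes. *Il10rb* rose by 0.56, *Tmem50b* by 0.32 and *Cryzl1* by 0.20, while *Gart*, an enzyme of purine synthesis, fell, at -1.01, as did *Atp5o*, at -0.17. The rise of *Cryzl1* turned to -0.022 with the same total per library. In cPLA_2_ KO cells 2 rose and 2 fell. *Il10rb* rose by 0.36 and *Son* by 0.20, *Gart* and *Tmem50b* fell, at -0.59 and -0.18, and *Cryzl1* and *Atp5o* gave 0.11 and -0.14 and did not pass. The interaction was -0.50 for *Tmem50b* and 0.42 for *Gart*, and for *Il10rb* it was -0.20 and did not pass, unlike for the receptor genes on both sides of it. LPS raised 3 and lowered 5 of the 9 genes. Of all genes tested, 28.2% rose and 28.4% fell with confinement in cPLA_2_ WT cells, and 22.8% and 23.4% in cPLA_2_ KO cells. With LPS these shares were 37.2% and 34.3%. *Gart*, *Son* and *Donson* overlap in position on opposite strands, and *Son* shares its entry with *Gm36712*, so that their values are less certain. The deposited entry of *Ifngr2* ends at 91367985 and so reaches into the GENCODE model of *Tmem50b*, chr16:91363830-91394697 on the minus strand. Whether reads of *Tmem50b* add to the values of *Ifngr2*, or the reverse, was not tested.

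**Figure D4:**
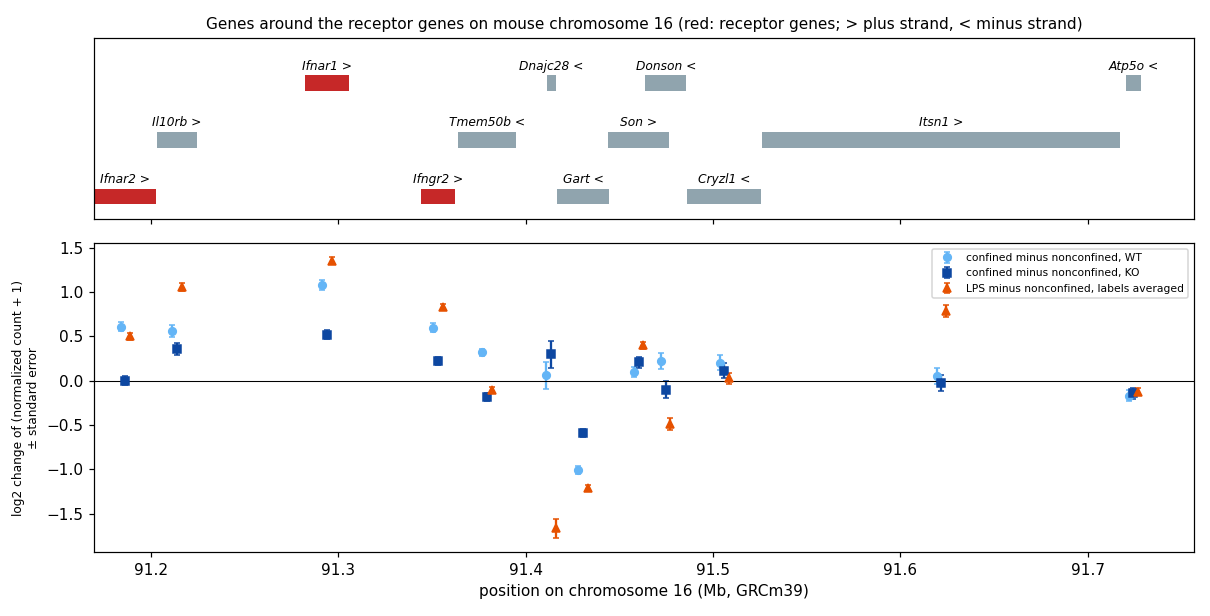
Top, genes from *Ifnar2* to *Atp5o* on mouse chromosome 16 (horizontal axis, Mb of GRCm39), drawn to scale with receptor genes of the interferons in red. Bottom, their changes from nonconfined cells (vertical axis, log2(normalized count + 1)) with standard errors from limma, where *Ifnar1* and *Gart* reached 1.08 and -1.01 with confinement in cPLA_2_ WT cells.

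The genes most like each of the 5 were taken by Pearson's r of log2(normalized count + 1) over the 18 libraries, among 11298 tested genes with a single symbol whose mean reached 50 normalized counts. The libraries fall into 6 groups, so that r mainly reflects the order of group means, and it is given as a description. For *Ifnb1* they included *Ppa1* (r = 0.987, Spearman's rho 0.924), *Myo10* (0.982, rho 0.9752), *Rab11fip1* (0.982, rho 0.944) and *Tslp* (0.982, rho 0.963), the last a cytokine gene. For *Ifnar1* they were *Mex3c* (r = 0.996, rho 0.971), *Nod2* (0.995, rho 0.969), a sensor of bacterial peptidoglycan, and *Cd274* (0.995, rho 0.957). For *Ifnar2* they were *Slpi* (r = 0.988, rho 0.936), *H3f3b* (0.978, rho 0.895) and *4930453N24Rik* (0.977, rho 0.936). For *Ifngr2* they were *Nfkbid* (r = 0.997, rho 0.983), *Zfp263* (0.996, rho 0.9752) and *Plek* (0.994, rho 0.967). For *Ifngr1*, whose level changed with LPS, they were *Stk17b* (r = 0.990, rho 0.839), *Cd93* (0.990, rho 0.870) and *Plau* (0.985, rho 0.730). When genes were ranked by rho instead, *Myo10* for *Ifnb1* and *4930453N24Rik* for *Ifnar2* were listed again, and *Slpi* had the same rho as the latter and was left out only by the breaking of that tie. No gene was listed again for *Ifnar1*, *Ifngr1* and *Ifngr2*.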

How the data were processed

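RNA from bone marrow-derived DCs was made into poly(A)-selected, strand-specific libraries with 2 kits, and the labels do not give the kit of each library. According to the Methods and the submitters' processing notes, the authors mapped reads with STAR 2.7.5a to mm39, counted genes (featureCounts 1.5.0) on Mouse FAST DB annotation and divided the counts by DESeq2 size factors in R 3.5.3. The deposited signal values are these normalized counts. Dividing each library's values by its smallest value above 0 gave whole reads for 100% of values (tolerance 1e-06). Groups came from the titles. The protocol text names LPS for every sample, but titles and treatment entries, which name it for the LPS groups only, were followed. The counting's use of strand is not given in the sources used here.

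Differential expression was tested with limma 3.58.1 (lmFit, contrasts.fit, eBayes with trend) in R 4.3.3 on log2(normalized count + 1), with a mean for each of 6 conditions over all 18 libraries. A call needed an adjusted p under 0.05. edgeR 4.0.16 and DESeq2 1.42.0 were run on the whole reads as alternatives. They called 10102 and 10267 genes for confinement in cPLA_2_ WT cells, against 10113 with limma. Other settings tried were a pseudocount of 0.5 or 5, a filter of 100 or none, the same total per library, TMM scaling, the compared groups alone, a replicate block, LPS groups as labelled and each library left out in turn. Replicates of a group differed by 3.91 to 42.7 times the variance that sampling alone gives, so none was a copy. On simulated data, limma recovered 182 of 200 changed genes among 15582, with 9 false calls. The simulation used the library sizes of nonconfined and confined cPLA_2_ WT cells only, with the same dispersion for every gene. All its changed genes had a higher baseline than *Ifnb1*, so that it does not cover genes near the floor. Gene models and genome sequence were from GENCODE vM39 on GRCm39. Figures were drawn with matplotlib 3.10.9.

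The 5 genes and the lists were chosen with earlier results of these data known. Named were these 5 genes, the 5 genes most like *Ifnb1* and 3 most like each receptor gene, all genes of lists of up to 8 genes and, from longer lists, the 3 largest called changes in each direction with confinement of cPLA_2_ WT cells and any gene at 0, with *Pla2g4a* as a check of labels and except for genes that are not reported here. *Ddx3y*, *Pias1* and *Ciita* with LPS, *Bst2*, *Son* and *Donson* and the single marker genes were named after values were seen. The authors' filter on intergenic signal was not repeated.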

Additional observations from a re-analysis of the deposited data

Results flagged for a closer look

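The change with confinement differed between genotypes for 4 of the 5 genes, by the interaction term of the limma fit. Expressed as the change in cPLA_2_ KO minus that in cPLA_2_ WT cells, it was -2.30 for *Ifnb1* (adjusted p = 0.00594), -0.56 for *Ifnar1* (adjusted p = 7.88e-06), -0.61 for *Ifnar2* (adjusted p = 1.85e-06) and -0.37 for *Ifngr2* (adjusted p = 0.000210). Of all genes tested, 15.6% had a negative and 10.2% a positive interaction. *Ifnb1* counts among the 4 only because it passed the filter through the groups where it was high. In nonconfined cPLA_2_ KO libraries the value of *Ifnb1* rests on 6 reads. Genotype and donor sex cannot be told apart in these comparisons.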

How the results depend on the processing

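Of the changes of the 5 genes, 28 were called and 17 were not. All 28 kept direction and call without any 1 library, and 23 also under every other alternative. The cause of the changes below was not tested. With only the groups compared, the change of *Ifnb1* with confinement in cPLA_2_ KO cells (1.88) was not called and its difference between confined cPLA_2_ WT and LPS-treated cells (-0.54) was called, as was the latter with a pseudocount of 5 (-0.52), edgeR (-0.47) and DESeq2 (-0.51). With the same total per library, calls were gained for *Ifnar1* in nonconfined cPLA_2_ KO minus cPLA_2_ WT cells (-0.20, and -0.16 with DESeq2), *Ifnar2* in confined cPLA_2_ WT minus LPS-treated cells (0.34, and 0.12 with TMM and 0.12 with edgeR) and *Ifngr1* in confined cPLA_2_ KO minus cPLA_2_ WT cells (0.16). Calls were lost for *Ifnar2* with LPS (0.0034) and in confined cPLA_2_ KO minus LPS-treated cells (-3.34e-06). Directions turned for confined cPLA_2_ WT minus LPS-treated cells in *Ifnar1* (0.10) and *Ifngr2* (0.049), for *Ifnar2* with confinement in cPLA_2_ KO cells (-0.036), for *Ifngr2* in nonconfined cPLA_2_ KO minus cPLA_2_ WT cells (-0.0077) and for *Ifngr1* with confinement (-0.16 in cPLA_2_ WT, -0.011 in cPLA_2_ KO cells) and its interaction (0.15). Of these turned values only the -0.16 of *Ifngr1* was called, so that *Ifngr1* gained this call and *Ifnar1* and *Ifngr2* also lost theirs for confined cPLA_2_ WT minus LPS-treated cells. The *Ifnar2* change in confined cPLA_2_ KO cells, 0.00043, was also turned by TMM (-0.0081), edgeR (-0.0091) and DESeq2 (-0.0035), and the *Ifngr1* difference between confined genotypes, 0.0014, by TMM (-0.0283), edgeR (-0.0284) and DESeq2 (-0.012). Leaving out 1 library gave ranges of -1.71 to -0.57 for *Ifnb1* and -0.0031 to 0.065 for *Ifngr1* in nonconfined cPLA_2_ KO minus cPLA_2_ WT cells, -0.020 to 0.015 for *Ifnar2* and -0.011 to 0.066 for *Ifngr1* with confinement in cPLA_2_ KO cells, -0.072 to 0.0045 for the *Ifngr1* interaction, -0.034 to 0.020 for *Ifngr1* in confined cPLA_2_ KO minus cPLA_2_ WT cells and -0.018 to 0.056 for *Ifngr2* between the LPS labels. The number of the 5 genes called in nonconfined cPLA_2_ KO minus cPLA_2_ WT cells became 1 with the same total and with DESeq2, and 0 to 1 without 1 library. In confined cPLA_2_ WT minus LPS-treated cells it became 5 with edgeR. With the replicate number as a block, the interaction of *Ifnb1* was -2.30 (adjusted p = 0.00893), no call of the 5 genes changed and 10002 genes were called for confinement in cPLA_2_ WT cells, against 10113 without it. Correlations of libraries with the same number lay between -0.14 and 0.34, and for no pair of groups were all above 0.1. Scalings were tried on the list counts after the data were seen. Depth limits *Ifnb1*, since its ratio of 4.57 with confinement in cPLA_2_ KO cells, which is adjusted for the size factors, rests on 24 and 6 reads.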
